A study of Mus musculus with 2 samples.

Results

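The 8 genes described here encode enzymes of phenylalanine and tyrosine breakdown and of the pterin cofactor that this pathway uses. They are Tat, Hpd, Hgd, Gstz1, Fah, Pcbd1, Qdpr and Gch1, taken by symbol from 23284 genes in the count files, and all 8 were found. The list was chosen by pathway with the counts and ratios of these libraries already in view, so the direction in which they differ between the libraries is a description and carries no test. RNA was sequenced from cultured mouse primary hepatocytes of strain C57BL/6, in 2 libraries. The first came from cells infected with lentivirus that carried an shRNA against JMJD3, a histone demethylase encoded by Kdm6b, and the second from cells infected with control lentivirus. Each library was a pool of cells from 5 mice, infected 24 h after plating and kept with the virus for 48 h, and both cultures then received 5 mM glucose with 10 μM forskolin for 6 h, a drug that raises cyclic AMP. No culture without virus or without forskolin was analysed here, so every value below belongs to infected, forskolin-treated cells.

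Phenylalanine is broken down in the liver by way of tyrosine, and its hydroxylation to tyrosine consumes tetrahydrobiopterin. Tyrosine then loses its amino group to tyrosine aminotransferase (Tat), and the product is oxidised by hydroxyphenylpyruvate dioxygenase (Hpd) and homogentisate dioxygenase (Hgd). Maleylacetoacetate isomerase (Gstz1) and fumarylacetoacetate hydrolase (Fah) finish the route, which yields fumarate and acetoacetate. The cofactor is made from GTP, with GTP cyclohydrolase (Gch1) as its first enzyme, and is returned to its active form by pterin carbinolamine dehydratase (Pcbd1) and dihydropteridine reductase (Qdpr). Tat is a textbook case of a liver gene induced by glucocorticoids and cyclic AMP.

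In the JMJD3 shRNA library 4 of the 7 measured genes were lower, 0 were higher and 3 did not pass. A gene was measured when its CPM, the read count scaled to library size with TMM factors, averaged at least 1 over both libraries, and it passed when its ratio was at least 1.5-fold from 1 and the exact binomial 95% interval of its counts lay off 1. Of all 12607 measured genes, 12.8% passed as lower and 15.3% as higher by the same rule. The 4 lower genes were Tat, Hgd, Qdpr and Gch1. They held the first step of tyrosine breakdown, a later dioxygenase, the first enzyme of cofactor synthesis and a recycling enzyme, Qdpr. Gstz1, Fah and Pcbd1 lay close to 1, and Hpd had too few counts to be measured. The median log2 ratio of the 7 genes was -0.69, against -0.0039 over all measured genes. There is 1 library per group, so none of these differences could be checked against replicates, and the intervals cover counting error alone.

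Promoter sequences of the 4 lower genes and of Fah, the gene nearest to no difference, are shown to set the starts of these genes side by side. They are from RefSeq (GRCm38.p6) and run from 250 bases before to 50 bases after the annotated start, 5′ to 3′ on the strand of the gene. Capitals mark CCAAT on either strand, and the letters TGACG with, in Gch1, the longer TGACGCAA that contains them. The windows lie at chr8:109990186-109990485 on the plus strand for Tat, chr16:37579903-37580202 on the plus strand for Hgd, chr5:45450180-45450479 on the minus strand for Qdpr, chr14:47189364-47189663 on the minus strand for Gch1 and chr7:84605893-84606192 on the minus strand for Fah.
Tat: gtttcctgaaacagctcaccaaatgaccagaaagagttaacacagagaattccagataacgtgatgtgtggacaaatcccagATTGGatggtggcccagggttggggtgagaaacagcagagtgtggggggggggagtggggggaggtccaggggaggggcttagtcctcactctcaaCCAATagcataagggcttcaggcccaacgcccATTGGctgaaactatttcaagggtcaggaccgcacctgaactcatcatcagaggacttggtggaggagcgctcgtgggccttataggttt
Hgd: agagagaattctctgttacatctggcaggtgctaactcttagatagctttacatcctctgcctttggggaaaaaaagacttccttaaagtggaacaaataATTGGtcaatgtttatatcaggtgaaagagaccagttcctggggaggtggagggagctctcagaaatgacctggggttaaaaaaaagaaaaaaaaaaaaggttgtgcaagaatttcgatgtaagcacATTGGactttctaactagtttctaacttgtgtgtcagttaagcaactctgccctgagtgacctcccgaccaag
Qdpr: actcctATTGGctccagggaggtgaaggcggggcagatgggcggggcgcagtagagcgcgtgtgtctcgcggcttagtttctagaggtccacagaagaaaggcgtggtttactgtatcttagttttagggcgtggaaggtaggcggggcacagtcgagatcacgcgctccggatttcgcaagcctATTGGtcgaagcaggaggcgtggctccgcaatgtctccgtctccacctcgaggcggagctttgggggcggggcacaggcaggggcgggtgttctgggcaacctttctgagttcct
Gch1: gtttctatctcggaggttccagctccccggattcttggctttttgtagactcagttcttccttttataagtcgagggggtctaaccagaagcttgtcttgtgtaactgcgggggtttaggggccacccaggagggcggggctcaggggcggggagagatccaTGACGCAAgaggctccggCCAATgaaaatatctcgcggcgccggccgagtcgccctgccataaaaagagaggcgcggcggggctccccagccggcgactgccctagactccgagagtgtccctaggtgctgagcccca
Fah: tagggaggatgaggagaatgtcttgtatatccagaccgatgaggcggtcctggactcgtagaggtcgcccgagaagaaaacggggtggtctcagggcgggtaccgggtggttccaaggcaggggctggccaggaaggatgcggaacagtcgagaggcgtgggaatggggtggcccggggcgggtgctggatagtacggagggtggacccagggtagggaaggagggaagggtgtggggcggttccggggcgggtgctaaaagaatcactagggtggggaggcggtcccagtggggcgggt
All 8 genes had an entry, and Gstz1 had 2. Matches are counted by gene among the 8 and by window among all promoters. Gstz1 could therefore match in either of its windows. CCAAT was found in Tat, Hgd, Gstz1, Qdpr and Gch1, that is in 5 of the 8 genes, and in 37.4% of 32851 promoters of the same length. In the Tat window it occurred 3 times, with its leftmost base 168, 72 and 40 bases before the start. TGACG, the core of the cyclic AMP response element, was in Gstz1 and Gch1 and in 20.8% of all promoters. The longer TGACGCAA was in Gch1 alone among the 8 genes, 88 bases before the start, and in 0.490% of all promoters. The full palindrome TGACGTCA and the full palindromic glucocorticoid response element were in none of the 9 windows of the 8 genes, and in 1.79% and 0.00913% of all promoters. TGTTCT, a single arm of the glucocorticoid response element, was in Qdpr and in 19.0% of all promoters, and TATAAA was in Hgd, Pcbd1 and Gch1 and in 13.6%. A match or its absence says only which letters stand in these windows.

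Tat stood apart from the other genes in both its level and its ratio. It had 1501 counts in the JMJD3 shRNA library and 17017 in the control library, which is 82.9 CPM with JMJD3 shRNA against 1514 CPM in control. The log2 ratio was -4.19 (95% interval -4.27 to -4.11), 18.3-fold lower with JMJD3 shRNA. Only 33 measured genes, Tat included, had a control CPM at least as high, and Tat had the lowest ratio among them. Over all 12607 measured genes, 59 had a ratio as low or lower, Tat included. The gene has 12 exons on the plus strand of chromosome 8, from 112514336 to 112523704 in mm9.

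Hpd, which follows Tat in the pathway and is usually abundant in liver, was almost absent. It had 1 count in the JMJD3 shRNA library and 4 in the control library, or 0.0552 CPM with JMJD3 shRNA and 0.356 CPM in control. The log2 ratio of -2.69 had an interval of -8.31 to 0.65, so a difference between the libraries was not detectable at this depth. The gene has 14 exons and spans 123621816 to 123632695 of chromosome 5 in mm9, minus strand.

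Hgd, the next dioxygenase, was low in both libraries and lower with JMJD3 shRNA. Its counts were 49 in the JMJD3 shRNA library and 147 in the control library, or 2.71 CPM with JMJD3 shRNA against 13.1 CPM in control. The log2 ratio was -2.27 (-2.77 to -1.80), 4.83-fold lower, and its interval was the widest of the 7, on the smallest counts. Hgd has 14 exons on the plus strand of chromosome 16, from 37580239 to 37632112 in mm9.

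The last 2 enzymes of the route did not pass the rule of size. Gstz1 had 613 counts in the JMJD3 shRNA library and 487 in the control library, that is 33.9 CPM with JMJD3 shRNA and 43.3 CPM in control. Its log2 ratio was -0.36 (-0.53 to -0.18), an interval off 0 with a fold under 1.5. Fah had 741 counts in the JMJD3 shRNA library and 445 in the control library, that is 40.9 CPM with JMJD3 shRNA and 39.6 CPM in control, and its log2 ratio of 0.05 had an interval of -0.12 to 0.22 that included no difference. In the tyrosine route the ratios were therefore lowest at the entry step and nearest to 1 at the last enzyme, with Hpd too low to place. Gstz1 lies on the plus strand of chromosome 12 from 88488115 to 88505673 and Fah on chromosome 7 at 91733670 to 91754452, minus strand, both in mm9. Of the exonic length of Gstz1, 22.6% (476 bp) overlaps exons of Pomt2 on the opposite strand, and strand was not used in counting, so the count of Gstz1 is uncertain.

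Among the pterin enzymes, the recycling reductase Qdpr had the lowest ratio. Qdpr had 515 counts in the JMJD3 shRNA library and 1374 in the control library, that is 28.4 CPM with JMJD3 shRNA and 122 CPM in control. The log2 ratio was -2.10 (-2.25 to -1.96), 4.30-fold lower. In mm9 it spans 45825271 to 45841468 of chromosome 5, minus strand, and GENCODE M21 annotates an antisense gene, Gm42413, over it, whose reads could not be told apart from those of Qdpr without strand. GENCODE M21 also annotates antisense genes over Hgd and Gstz1, a lincRNA and Psmd9 over Hpd, and 2 processed pseudogenes over Gch1.

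Gch1, the entry enzyme of cofactor synthesis, passed with a small margin. It had 674 counts in the JMJD3 shRNA library and 673 in the control library, which the difference in depth turns into 37.2 CPM with JMJD3 shRNA and 59.9 CPM in control. The log2 ratio was -0.69 (-0.84 to -0.53), 1.61-fold lower, and Gch1 no longer passed when a 2-fold difference was required. Pcbd1 had 619 counts in the JMJD3 shRNA library and 454 in the control library, that is 34.2 CPM with JMJD3 shRNA and 40.4 CPM in control. Its log2 ratio of -0.24 (-0.42 to -0.06) did not pass, and became 0.10 when the dependence of the ratio on exonic length, fitted over all measured genes, was removed. In mm9, Gch1 spans 47773570 to 47809077 on the minus strand of chromosome 14 with 6 exons, and Pcbd1 spans 60552091 to 60557077 on the plus strand of chromosome 10 with 4 exons.

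**Figure D1:**
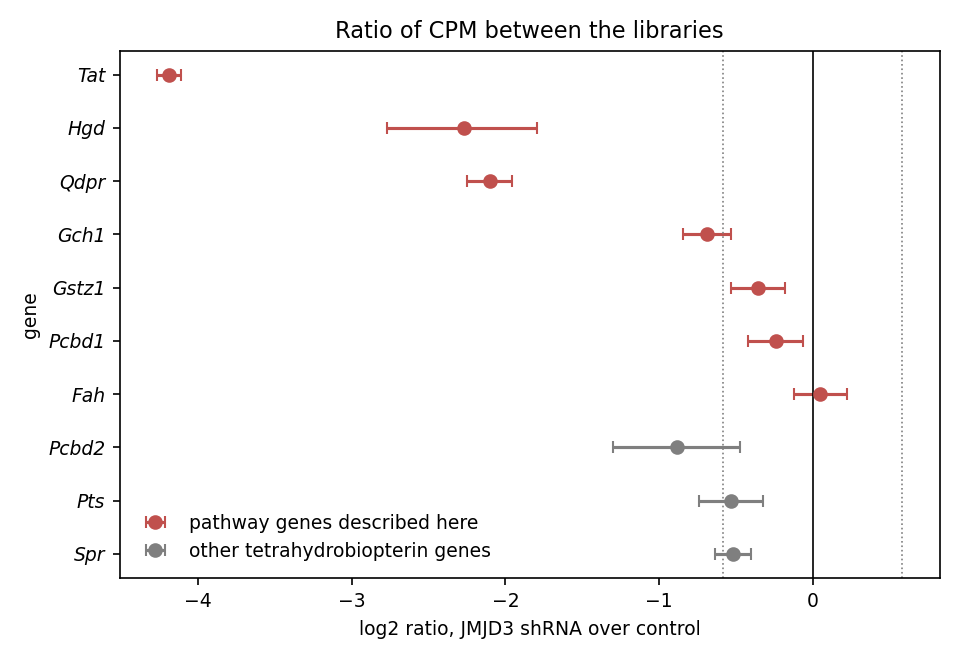
Log2 ratio of JMJD3 shRNA over control for the 7 measured pathway genes (red) and Pcbd2, Pts and Spr of the tetrahydrobiopterin list (grey), with exact binomial 95% intervals. Dotted lines mark 1.5-fold. Tat lies at -4.19, Hgd and Qdpr near -2, and Fah at 0.05.

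The remaining tetrahydrobiopterin genes differed less than Qdpr. Of 7 measured genes in that list of 8, which includes Gch1, Pcbd1 and Qdpr, 3 were lower and 0 higher. By the rule of size, 12.8% of all measured genes were lower and 15.3% higher. These 7 genes had a median of -0.53 in log2 units, where all measured genes had -0.0039. Pcbd2, a close relative of Pcbd1, was the third lower gene, with 5.25 CPM in the JMJD3 shRNA library and 9.70 CPM in control (log2 -0.89, interval -1.30 to -0.48). It no longer passed, at -0.44, once the dependence on exonic length was removed. The synthesis enzymes Pts and Spr had log2 ratios of -0.53 (-0.74 to -0.32) and -0.52 (-0.63 to -0.40) and did not pass. Gchfr, the feedback regulator of GTP cyclohydrolase, had 13 counts in the JMJD3 shRNA library and 6 in the control library and was not measured.

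Per exonic length, the order of the genes differed between the libraries. Levels are given here as TPM, counts divided by the deposited exonic length and scaled to a common sum in each library, with exact Poisson intervals. In the JMJD3 shRNA library the order was Pcbd1 at 106 TPM (97.8 to 115), Tat at 87.6 (83.2 to 92.1), Fah at 64.9 (60.3 to 69.7), Qdpr at 51.2 (46.9 to 55.8), Gstz1 at 40.3 (37.2 to 43.6), Gch1 at 33.8 (31.3 to 36.5), Hgd at 3.98 (2.94 to 5.26) and Hpd at 0.102. In the control library it was Tat at 1484 TPM (1462 to 1506), Qdpr at 204 (194 to 215), Pcbd1 at 116 (106 to 127), Fah at 58.2 (52.9 to 63.9), Gch1 at 50.5 (46.7 to 54.4), Gstz1 at 47.9 (43.7 to 52.3), Hgd at 17.8 (15.1 to 21.0) and Hpd at 0.608. No neighbours in the JMJD3 shRNA order had overlapping intervals, while in control the interval of Gch1 overlapped those of Fah and Gstz1. These intervals cover counting error alone, and would be wider if both reads of a pair were counted.

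Tat made up 22.6% of the summed TPM of the 8 genes in the JMJD3 shRNA library and 75.0% in the control library. The share of Pcbd1 was 27.3% with JMJD3 shRNA and 5.87% in control, and that of Fah was 16.7% with JMJD3 shRNA and 2.94% in control. Qdpr was nearer to level, at 13.2% with JMJD3 shRNA and 10.3% in control, and Hgd held 1.03% with JMJD3 shRNA and 0.901% in control. Tat exceeded Fah 1.35-fold in TPM in the JMJD3 shRNA library and 25.5-fold in control. The ratio of Qdpr to Pcbd1, the enzymes of cofactor recycling, was 0.483 in the JMJD3 shRNA library and 1.76 in control, so the more abundant transcript of this pair differed between the libraries. All 8 genes together took 0.0257% of counts in the JMJD3 shRNA library, 4713 of 18334366, against 0.186% in control, 20601 of 11099562.

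**Figure D2:**
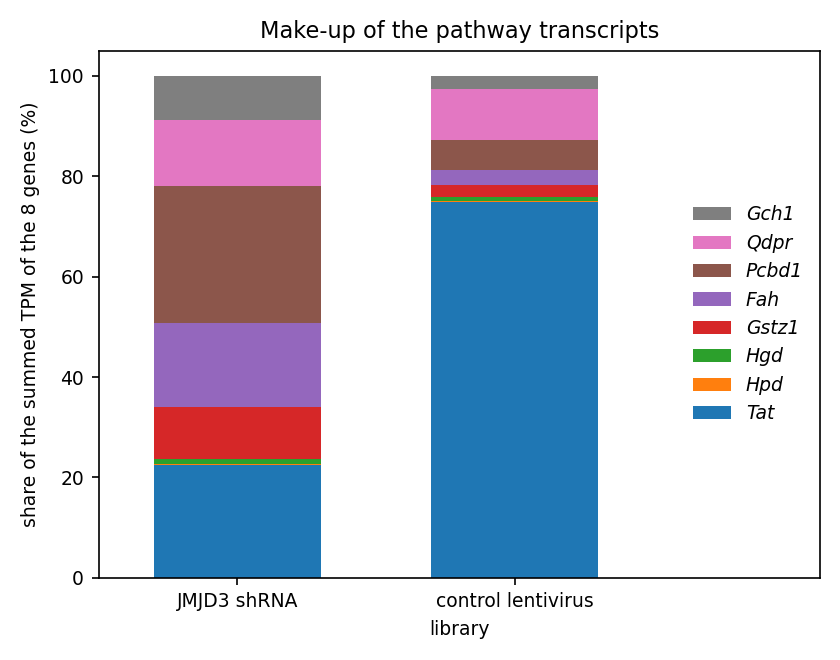
Share of each gene in the summed TPM of the 8 genes, for the JMJD3 shRNA library (left bar) and the control library (right bar). Tat fills 75.0% of the control bar and 22.6% of the JMJD3 shRNA bar, where Pcbd1 holds the largest share.

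In the authors' deposited table, which covers 12838 genes, 7 of the 8 genes are listed and Hpd is not. A negative fold change with an adjusted p-value under 0.05 is given there for 4 of the 7, against 11.8% of all genes of the authors' deposited table, and a positive one for 0, against 14.6%. These are the genes that passed the rule of size: the authors' deposited table gives adjusted p-values of 7.37e-69 for Tat, 9.63e-12 for Hgd, 4.82e-19 for Qdpr and 0.0103 for Gch1. It gives 0.249 for Gstz1, 0.478 for Pcbd1 and 0.921 for Fah in the same authors' deposited table. No source used here states the test behind these values or the spread it assumes, and with 1 library per group they rest on no replicate.

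**Figure D3:**
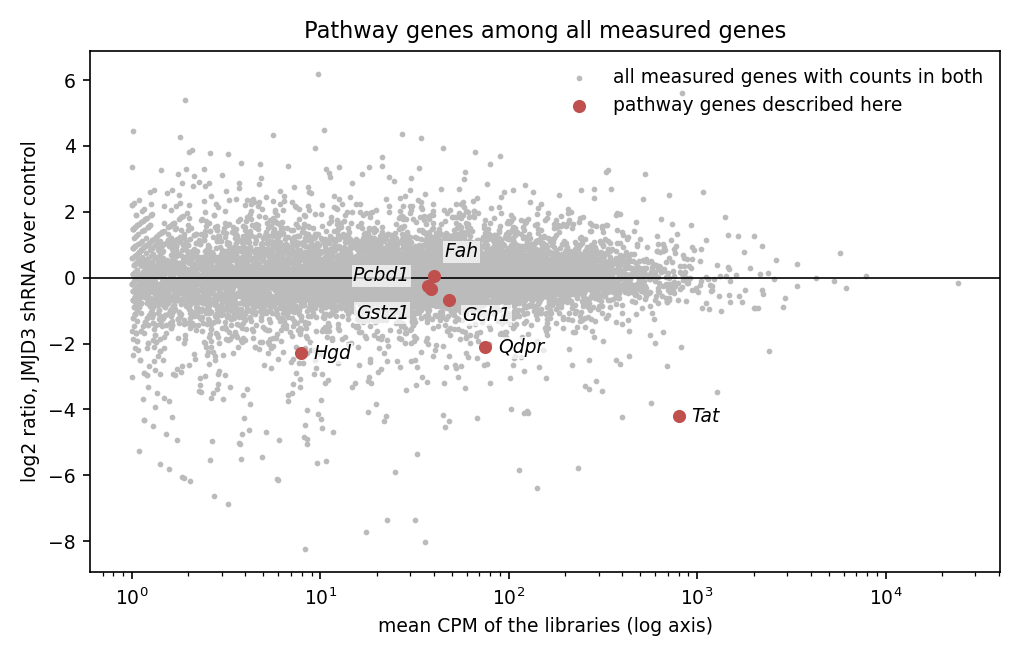
Log2 ratio of JMJD3 shRNA over control against mean CPM (log axis) for all measured genes with counts in both libraries (grey) and the 7 measured pathway genes (red). Tat lies below the grey cloud at its level, while Fah, Pcbd1 and Gstz1 lie inside it.

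The 2 libraries differed in more than this pathway. The JMJD3 shRNA library held 18334366 counts and the control library 11099562, with 16282 genes counted in the JMJD3 shRNA library and 15856 in control. Kdm6b, the shRNA target, had 598 counts in the JMJD3 shRNA library and 1019 in control, a log2 ratio of -1.46 (-1.60 to -1.31). Of 10 hepatocyte markers, 7 were measured, and 5 of these were lower and 0 higher, against 12.8% and 15.3% of all measured genes. The 10 summed to 6129 CPM with JMJD3 shRNA against 10705 CPM in control. Trf, Fgb and Alb, named after the values were seen, were the most abundant of the 10 in both libraries. Trf, at 4254 CPM with JMJD3 shRNA and 4282 CPM in control, made most of the JMJD3 shRNA sum and did not pass. Fgb, at 846 CPM with JMJD3 shRNA and 3987 CPM in control, was lower. Alb was also lower, at 794 CPM with JMJD3 shRNA and 1519 CPM in control. Fabp1 had 2 counts in each library and Cyp2e1 had 0. The summed level of 5 cholangiocyte markers was 8282 CPM with JMJD3 shRNA against 7974 CPM in control, with 3 of 5 measured genes higher and 0 lower. In a split chosen after the values were seen, Spp1 alone gave 8011 CPM with JMJD3 shRNA and 7795 CPM in control, and the other 4 summed to 272 CPM with JMJD3 shRNA and 178 CPM in control. Macrophage markers summed to 25.0 CPM with JMJD3 shRNA against 23.8 CPM in control, with 0 of 4 measured genes lower or higher. Stellate cell markers summed to 129 CPM with JMJD3 shRNA against 146 CPM in control, with 2 of 5 measured genes lower, and endothelial markers to 40.6 CPM with JMJD3 shRNA against 45.7 CPM in control, with 1 of 5 lower. Clec4f and Cd163 of the macrophage list and Lrat of the stellate list had at most 3 counts in each library. The part of these marker differences in the values of the pathway genes was not tested. In these bulk libraries fewer cells of a type and less RNA per cell cannot be told apart.

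Aromatic amino acid transporters and other enzymes of tyrosine also held genes with low ratios. Of these lists, only the other enzymes held a ratio below that of Tat. Slc16a10, which carries aromatic amino acids across the cell membrane, was at 33.9 CPM with JMJD3 shRNA and 280.5 CPM in control (log2 -3.05, interval -3.18 to -2.92). Of 5 measured transporters, 2 were lower and 1 higher, where 12.8% of all measured genes were lower and 15.3% higher. The median of the transporters was -0.05. The abundant subunit Slc3a2 was at -0.05 and did not pass, while its partner Slc7a5 was the higher gene, at 0.84 (0.64 to 1.04). Among 16 measured genes that use tyrosine or its products or are relatives of the pathway enzymes, 7 were lower and 0 higher, and the median was -0.48. The lowest was Ddc, aromatic amino acid decarboxylase, at 4.53 CPM with JMJD3 shRNA and 92.2 CPM in control (log2 -4.35, interval -4.69 to -4.02). Got1, the cytosolic aspartate aminotransferase, was at 47.0 CPM with JMJD3 shRNA and 490 CPM in control (-3.38). Hpdl, a relative of Hpd, had the highest ratio at 0.79 with an interval of -0.12 to 1.79 that included no difference. Tyr and Th, the tyrosine hydroxylating enzymes of pigment cells and neurons, had 0 counts in both libraries, which allows up to 0.166 CPM with JMJD3 shRNA and 0.267 CPM in control, from a floor of 3 counts.

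Regulators known to act on Tat, or to bind Pcbd1, were all measured. Of 13, 6 were lower and 1 was higher, against 12.8% and 15.3% of all measured genes. The median log2 ratio of the 13 was -0.57. The higher one was Nr3c1, the glucocorticoid receptor, at 189 CPM with JMJD3 shRNA and 106 CPM in control (0.84, interval 0.74 to 0.93), and it no longer passed once the dependence on exonic length was removed. The lowest was Onecut1, a liver transcription factor, at -1.82 (-2.02 to -1.62). The abundant Cebpb was lower, at -0.71, and Hnf4a, at -0.57, did not pass. With the dependence on exonic length removed, Hnf4a passed as lower, at -0.71, and Cebpb, at -0.55, did not.

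Glucocorticoid-induced genes did not differ in a single direction. Of 15 measured genes, 6 were lower and 4 higher, against 12.8% and 15.3% of all measured genes, and the median of the list was -0.34. The lowest was Tdo2, tryptophan dioxygenase, at 14.2 CPM with JMJD3 shRNA and 236 CPM in control, and its log2 ratio of -4.06 (-4.25 to -3.87) was close to that of Tat. Sgk1, a serum- and glucocorticoid-regulated kinase, was at -3.79, while Klf9 was highest at 1.34 (1.10 to 1.58). Lcn2, the most abundant gene of the list, was at -0.48 and did not pass. Sgk1 was also the gene whose CPM in the 2 libraries came nearest to those of Tat, at 76.5 with JMJD3 shRNA and 1060 in control, a distance of 0.53 in log2 units. The next nearest were Ugt2b34, a glucuronosyltransferase, at a distance of 1.24 with a ratio of -2.67, and Xdh, xanthine dehydrogenase, at 1.24 with a ratio of -2.62. The distance uses the CPM of both libraries, so it also limits how far a ratio can lie from that of Tat. Such nearness describes the values of these 2 libraries alone.

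Other routes of amino acid breakdown had medians on the same side of 0. Of all measured genes, 12.8% were lower and 15.3% higher. Of 7 measured tryptophan genes, 4 were lower and 0 higher, and the median was -0.76, Kynu, kynureninase, at -0.76 and Afmid highest at 0.57 without passing. Tdo2, named above, was lowest in that list too. For serine, glycine, threonine and histidine, 8 of 13 were lower and 2 higher, and the median was -0.83. There the lowest was Hal, histidine ammonia-lyase, at -6.15 (-8.44 to -4.57) on 3 counts with JMJD3 shRNA and 132 in control, and the highest was Shmt1 at 1.83. Gldc, of the glycine cleavage system, was at -1.07 and Dld at -0.19. In the urea cycle 6 of 7 were lower and 0 higher, and the median was -1.21, from Cps1 at -5.85 to Asl at -0.45, and Ass1 was at -1.39. The pathway genes had 4 of 7 lower, and no test set them against these lists.

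**Figure D4:**
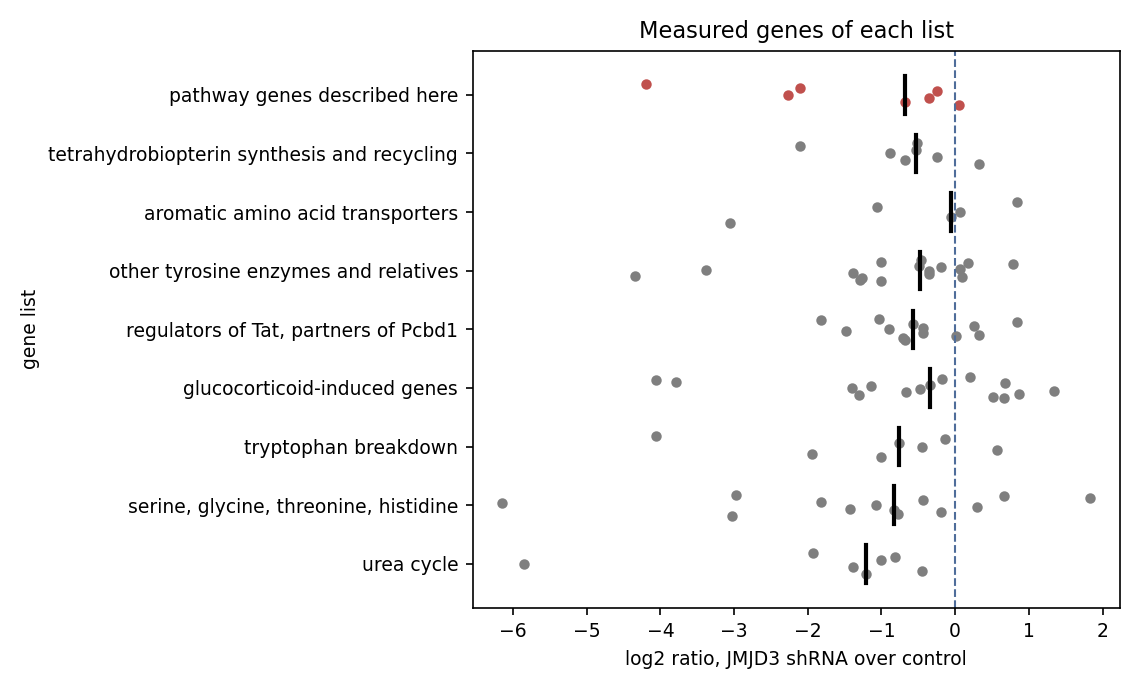
Log2 ratio of JMJD3 shRNA over control for the measured genes of each list (points), with the median of the list (black bar) and of all measured genes (dashed line). The pathway genes in red run from -4.19 to 0.05, and the medians of all lists lie left of the dashed line, closest to it for the transporters at -0.05.

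The nearest measured genes on either side of the 8 genes held lower and higher genes. Of these 16 neighbours 6 were lower (37.5%, against 12.8% of all measured genes) and 3 higher (18.8%, against 15.3%), and log2 ratios ran from -1.42 to 1.95 around a median of -0.21. Beside Tat, Marveld3 lay 28.2 kb away at -0.65 and Zfp612 79.9 kb away at -0.45, both nearer to 1 than Tat, and Marveld3 passed as lower. Beside Qdpr, Lap3, leucine aminopeptidase, was at -0.74 and Ldb2 at -1.35 on 12 counts with JMJD3 shRNA and 19 in control, and both passed as lower. Beside Hgd, Ndufb4 was at -0.75 and Rabl3 at 0.16, and beside Hpd, Psmd9 was at -0.72 and Tmem120b at -0.10. The neighbours of Gch1 were Samd4 at 0.96 and Wdhd1 at 0.22, those of Gstz1 were Tmed8 at 0.68 and 2310044G17Rik at 0.02, and those of Pcbd1 were Unc5b at 1.95 and Sgpl1 at 0.34. Fah lay between Gm2115, at -1.42 on 12 counts with JMJD3 shRNA and 20 in control, and Zfand6 at -0.32. Distances are between gene ends in mm9. Genes that overlap one of the 8 in the counted models, as Pomt2 does Gstz1, were left out. In those models Psmd9 lies 45.5 kb from Hpd, though GENCODE M21 annotates it over Hpd.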

How the data were processed

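The 8 genes and the other lists were chosen by pathway with earlier results of these data known. The submitters' processing notes name STAR 2.5.3a, Trimmomatic 0.36, edgeR and bcl2fastq 2.17.1.14 besides the mm9 build. Each deposited count is a whole number of reads over the exons of a gene, made by featureCounts 1.4.6-p4 on UCSC models for mm9, without strand and with no option for read pairs, per the file headers, so both reads of a pair may be counted. The deposited lengths are summed exon lengths in bp. The authors' deposited table gives log2 fold changes and p-values whose test is not given in the sources used here. Its fold change had the sign of the knockdown over control count ratio in 12824 of 12824 genes.

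Counts were scaled with TMM factors (edgeR 4.0.16, R 4.3.3). Ratios had exact conditional binomial (Clopper-Pearson) 95% intervals (scipy 1.17.1), with no pseudocount and no p-value, since each group is 1 library. The procedure was run on simulated counts with Poisson error alone, as the intervals assume. That run says nothing about spread between cultures. The alternatives tried were other scalings (DESeq2 1.42.0), filters, folds, 0.5 added counts, counts divided by 2 and removal of a length trend. Named genes are the 8 genes, the cofactor genes, the 2 most abundant, highest and lowest genes of each other list, the nearest neighbours and the 3 genes nearest to Tat in CPM. A few of these genes are not reported here by name, though the counts of their lists include them. The share of 50-base stretches that transcripts of a gene have in common with other genes in GENCODE M21 was 12.0% for Qdpr, 9.39% for Gstz1, 0.0323% for Gch1 and 0% for the other 5 genes.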

Additional observations from a re-analysis of the deposited data

How the results depend on the processing

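The count of 4 lower and 0 higher genes held under all scalings and filters, with 0.5 counts added, with intervals on counts divided by 2, with the length trend removed and in the authors' deposited table. It was 3 lower with a 2-fold minimum, which Gch1 misses, and 6 lower with no minimum fold, where Gstz1 and Pcbd1 join. The shares of all measured genes under these other minimum folds were not computed. The counts of 3 and 6 therefore have no background beside them. With no filter on low values, which brings in Hpd on 5 counts in all, the median log2 ratio of the genes was -1.39. Removal of the exon length trend moved the medians to -0.30 for the tetrahydrobiopterin list, -0.18 for other tyrosine enzymes, -0.16 for glucocorticoid-induced genes and -1.05 for the urea cycle. With the trend removed, 11.8% of all measured genes with counts in both libraries were lower and 13.3% higher. Their median log2 ratio was -0.014. Removal of the trend gave 2 lower genes in the tetrahydrobiopterin list, where Pcbd2 was lost. It gave 5 lower among glucocorticoid-induced genes, where Igfbp1, named after its values were seen, was lost. It also gave 1 higher gene among other tyrosine enzymes (Hpdl) and 1 in tryptophan breakdown (Afmid), and 0 higher among the regulators, and moved the ratio of Qdpr to -1.92. The cause was not tested. Over all settings the log2 ratio ran from -4.24 to -4.14 for Tat, -2.32 to -2.14 for Hgd and -0.73 to -0.67 for Gch1, while that of Fah ran from -0.0013 to 0.20. No paired analysis was possible because each group is 1 library. Depth limits Hpd and Hgd most.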
